A study of Homo sapiens with 78 samples.

Results

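The data compared here are single A375 and Jurkat cells prepared for total RNA sequencing with the Takara Pico Input v2 reagents (kit #634413). All 39 wells labelled with this kit, of 78 wells in the series, were considered, and the 35 wells with at least 200000 estimated counts were kept. These were 17 of 21 A375 wells and 18 of 18 Jurkat wells. A375 is a BRAF-mutant human melanoma line, and Jurkat is a human T cell leukemia line. A375 cells were grown in DMEM and sorted into 7 µl of PBS after staining for CD47, and Jurkat cells were grown in RPMI and sorted into 8 µl of lysis solution after staining for CD81. Dead cells were left out with 7-AAD in both lines. Cell line, medium, sort antibody and sort buffer therefore go together and cannot be told apart. Each well held 1 sorted cell and the labels name no separate cultures, so each line counts as 1 sample. No test or p-value is given, and the spread between wells is the spread between cells of 1 line. Levels of CD47 and CD81 themselves are not read as a difference between the lines, since cells were chosen by them.

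As background, T cells read antigen through a receptor whose CD3 chains are phosphorylated by LCK, after which ZAP70 is recruited and passes the signal to the adaptors LAT and LCP2. They move and adhere through leukocyte integrins and actin regulators that occur mainly in blood cells. Melanoma cells descend from the neural crest, attach to a matrix that they largely lay down themselves, and, when BRAF is mutated, signal through the ERK cascade, which drives its own feedback inhibitors. Melanomas range from pigmented, MITF-high states to dedifferentiated, AXL-high states.

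Total estimated counts ranged from 231540 to 2455701 in A375 wells and from 413959 to 1443975 in Jurkat wells. A pair of A375 wells stood apart, wells 8 and 11, in which 4.85% and 10.5% of the counts fell on protein-coding genes, against 66.2% to 77.7% in the other 15 A375 wells and 68.4% to 76.9% in the Jurkat wells. In these wells the rDNA repeat held 53.4% and 48.5% of the counts, and nuclear copies of mitochondrial genes held 34.1% and 27.2%, leaving 11219 and 29255 protein-coding counts. The repeat held 5.98% to 14.1% in the other 15 A375 wells and 9.97% to 19% in Jurkat wells. The copies held 2.27% to 4.5% and 1.36% to 3.03%. No mitochondrial gene was among the quantified targets, so counts on the copies are not read as expression of the copies. Well minima of A375 are often 0 because of wells 8 and 11, so values without these wells (15 wells) are given beside some that rest on them. No pair among the kept wells was identical in its values (0 of 595 pairs).

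Levels are given as CPM, counts normalised to the total count on protein-coding, T cell receptor and immunoglobulin genes. Counts were summed over the wells of a line (12419751 in A375 and 13186856 in Jurkat), and the log2 ratio is that of A375 over Jurkat after adding 1 CPM, so positive values mean higher in A375. Of the autosomal genes, 10752 reached 10 CPM in either line and are called measured. The lines differed widely: 1700 genes (15.8%) were at least 4-fold higher in A375 and 1025 (9.53%) at least 4-fold higher in Jurkat, while 50.8% lay within 2-fold. The median log2 ratio was 0.07, with quartiles of -0.86 and 1.14. A stricter description asks that no well of 1 line overlaps the wells of the other. It was met by 30 genes (0.279%) higher in A375 and 47 (0.437%) higher in Jurkat with all 17 A375 wells, and by 195 (1.81%) and 52 (0.484%) with 15. Passing the minimum level through 1 line only favours a difference, so counts over measured genes are read against these shares and are descriptions. Below, "higher" in a count of a gene list means at least 4-fold.

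**Figure D1:**
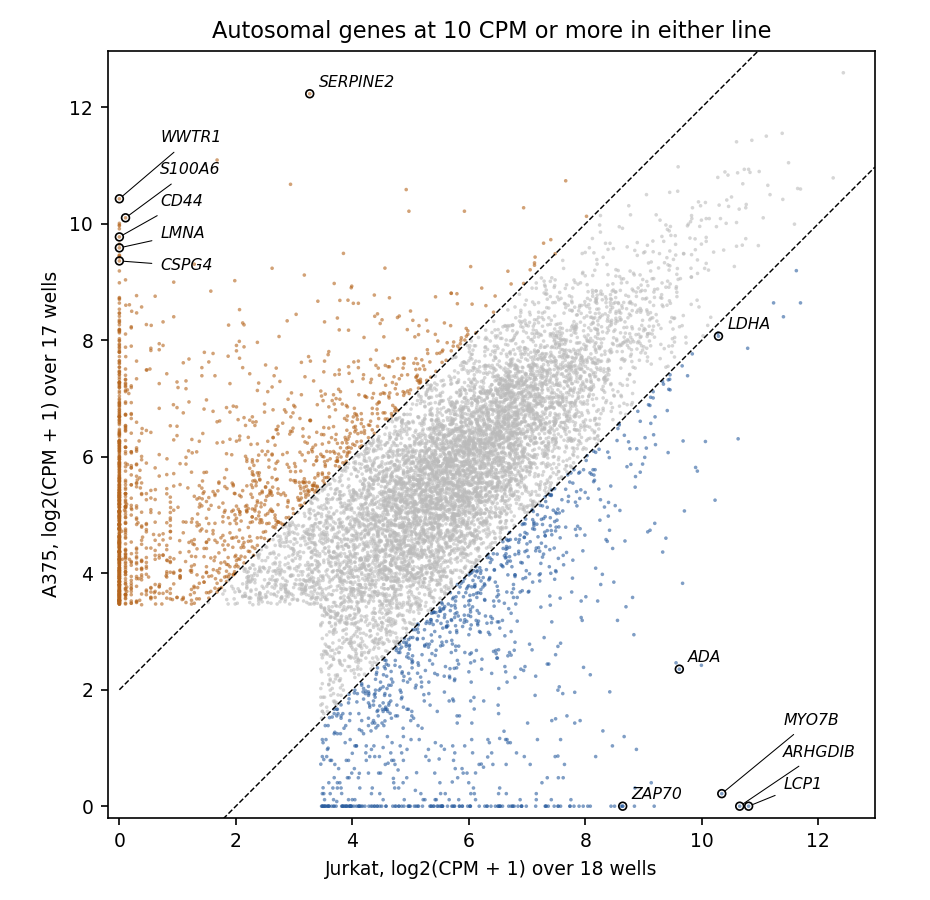
Summed level of each measured autosomal gene in Jurkat (x axis, 18 wells) and A375 (y axis, 17 wells), both as log2(CPM + 1). Dashed lines mark a 4-fold difference. The 1700 orange genes lie above the upper line and the 1025 blue genes below the lower line, many of them on an axis, with no count in the other line.

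The cell line labels were set beside 4 marker genes, and each marker was found in its own line, with at most 1 count in the other. These markers were chosen with earlier results of these data known, so their levels describe the lines and are no independent check of the labels. LCP1 encodes L-plastin, an actin bundling protein of leukocytes, and ZAP70 the kinase of the T cell receptor complex. CSPG4 encodes a surface proteoglycan of melanoma cells, and S100A6 a small calcium-binding protein of many adherent cells. Their genes lie at chr13:46125920-46211871, chr2:97713576-97739862, chr15:75674322-75712848 and chr1:153534599-153536244 (GRCh38). The 250 bases upstream of their RefSeq starts (GRCh38.p14) are shown because these 4 genes are the markers of the lines used here. The windows are chr13:46182178-46182427 (minus strand), chr2:97713326-97713575 (plus), chr15:75712849-75713098 (minus) and chr1:153535992-153536241 (minus), each printed 5′ to 3′ along its gene. Capitals mark the motifs searched on both strands, which were GGAAGT (ETS), TGTGGT (RUNX), CAGCTG (an E-box), GGAATG (TEAD), TGANTCA (AP-1) and GGGCGG (GC box), and neighbouring GC boxes can overlap.
LCP1: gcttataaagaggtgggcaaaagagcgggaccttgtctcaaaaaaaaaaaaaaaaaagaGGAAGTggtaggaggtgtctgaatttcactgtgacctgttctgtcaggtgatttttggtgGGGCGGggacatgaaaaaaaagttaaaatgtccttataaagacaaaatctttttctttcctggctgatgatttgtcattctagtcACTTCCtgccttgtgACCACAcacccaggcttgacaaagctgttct
ZAP70: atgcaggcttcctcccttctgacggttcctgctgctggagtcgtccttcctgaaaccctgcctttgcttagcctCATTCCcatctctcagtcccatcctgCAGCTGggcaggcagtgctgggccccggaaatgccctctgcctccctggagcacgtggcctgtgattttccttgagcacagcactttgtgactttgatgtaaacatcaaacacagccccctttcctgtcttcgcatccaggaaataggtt
CSPG4: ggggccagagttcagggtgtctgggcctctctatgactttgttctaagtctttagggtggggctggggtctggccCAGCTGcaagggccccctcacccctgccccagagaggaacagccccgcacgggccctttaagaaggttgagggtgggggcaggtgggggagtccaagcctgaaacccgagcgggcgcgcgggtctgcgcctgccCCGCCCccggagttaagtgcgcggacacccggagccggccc
S100A6: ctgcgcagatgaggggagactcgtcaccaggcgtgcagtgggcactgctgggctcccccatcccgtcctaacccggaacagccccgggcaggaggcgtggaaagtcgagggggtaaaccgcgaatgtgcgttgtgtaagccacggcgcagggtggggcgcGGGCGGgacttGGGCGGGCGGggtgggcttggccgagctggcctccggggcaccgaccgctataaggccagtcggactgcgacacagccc
The LCP1 window held 2 ETS matches, 1 RUNX match and 1 GC box, the ZAP70 window 1 E-box and 1 TEAD match, the CSPG4 window 1 E-box and 1 GC box, and the S100A6 window 3 GC boxes. Over 8813 measured genes with a window of the same length, TGANTCA was present in 3.32%, against 5.02% of 1334 genes higher in A375 and 3.39% of 797 higher in Jurkat. The RUNX letters were present in 7.21% of all windows, 7.5% of those higher in A375 and 9.28% of those higher in Jurkat. For TEAD the shares were 9.01%, 11.5% and 7.78%, and for the E-box 12%, 12.3% and 15.3%. Both sets of genes at least 4-fold higher in a line held the ETS letters (19% and 21%) and the GC box (63.6% and 61.7%) less often than all windows (24.5% and 68.4%), a description without a test.

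LCP1 had between 458 and 2470 CPM in the Jurkat wells, with a median of 1820, and no count in any A375 well. Its summed level was 1790 CPM (1770 to 1820, exact Poisson interval at 95%, counting error only), at least 7420-fold higher than the 3 counts that a sum of 0 allows in A375. ZAP70 lay between 129 and 938 CPM in Jurkat wells (median 383), and was again at 0 in all A375 wells, a difference of at least 1650-fold. Every Jurkat well thus stood above every A375 well for both genes. CSPG4 reached 1570 CPM at most in A375 with a median of 435, and was at 0 in wells 8 and 11 and in all Jurkat wells. Without these wells its lowest A375 value was 238 CPM, and the summed levels differed by at least 2890-fold. S100A6 had a median of 921 and a maximum of 2270 CPM in A375, and 1 count in all Jurkat wells together. The ratio was 14500 (2610 to 574000, counting interval).

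**Figure D2:**
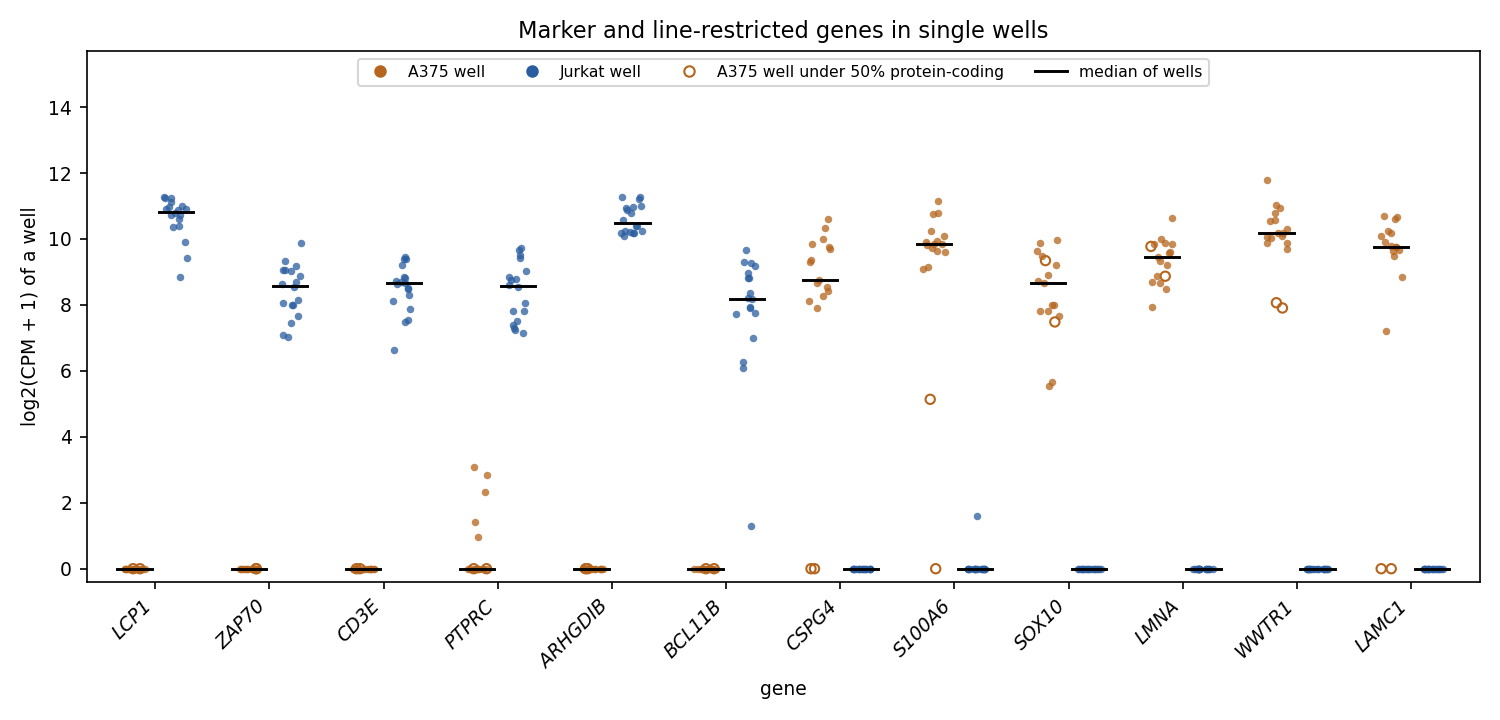
Level of 12 genes in each well, as log2(CPM + 1), for A375 (orange, 17 wells) and Jurkat (blue, 18 wells), with the median of the wells as a bar. Open circles are A375 wells 8 and 11. LCP1, ZAP70, CD3E and ARHGDIB sit above 0 in all Jurkat wells and at 0 in all A375 wells, and SOX10, LMNA and WWTR1 do the reverse.

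Most T lineage genes were present in Jurkat and at or near 0 in A375. Of 30 T lineage genes 26 were measured, 25 of them higher in Jurkat and none in A375, with a median log2 ratio of -6.72 (-8.05 with genes absent from A375 placed at their bound). The summed level of the list was 4640 to 8470 CPM in Jurkat wells and 0 to 534 CPM in A375 wells. CD3E, a signalling chain of the receptor complex, lay between 98.8 and 706 CPM in Jurkat wells (median 403) and at 0 in A375. CD3D had a median of 152 CPM in Jurkat wells and CD247, the zeta chain, 106 CPM, and neither had a count in A375. CD3G, the gamma chain, had 162 CPM summed in Jurkat and 4.43 CPM in A375, where 4 wells held a count and the highest value was 273 CPM. Without wells 8 and 11 the highest A375 value was 24.1 CPM, below the lowest Jurkat well (29 CPM). The constant region genes of the beta chain, TRBC1 and TRBC2, had 342 and 64.3 CPM in Jurkat, and reads can be split between these near-identical genes. TRAC, the alpha constant region, was more scattered, with a count in 12 of 18 Jurkat wells and a median of 4.36 CPM. PTPRC, the leukocyte phosphatase CD45, ranged from 141 to 854 CPM in Jurkat, and reached 7.51 CPM in the highest of 5 A375 wells with a count. CORO1A, a coronin that binds actin in leukocytes, had 462 CPM in Jurkat and 0.242 CPM (3 counts) in A375.

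Genes of T cell maturation were unevenly present in Jurkat. CD1E, a thymocyte surface protein, had a median of 242 CPM and RAG2, a recombinase subunit, a median of 0 with 6 wells holding a count. RAG1 (7.28 CPM summed), PTCRA (0.607), CD52 (1.44) and CD27 (0.227) did not reach 10 CPM in either line. CD4 had 23.4 CPM in Jurkat, from 9 wells, and 2.09 CPM in A375, from 1 well. The single member that was not higher in Jurkat was CD96, a receptor of T and natural killer cells. It ranged up to 490 CPM in A375 wells, with a median of 147, and up to 439 in Jurkat wells, with a median of 29.6, so that the wells overlapped (log2 ratio 1.94).

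Transcription factors of the T lineage were mostly higher in Jurkat. Of 26 genes of the T lineage and T leukemia, 23 were measured, 16 higher in Jurkat and 2 in A375 (median -3.20). The shares over all measured genes were 9.53% and 15.8%. With all 17 A375 wells, the wells of 8 did not overlap, all higher in Jurkat, against 0.437% of all measured genes. TCF7, a factor of early T cell commitment, lay between 210 and 2630 CPM in Jurkat wells and reached 18.6 CPM at most in A375. BCL11B, which fixes the T cell fate, had a median of 290 CPM in Jurkat and no count in A375, though 1 Jurkat well had only 1.46 CPM. TOX (26.5 to 505 CPM) and IKZF1 (52 to 1110 CPM) were present in all Jurkat wells, TOX with no count and IKZF1 with counts in 2 wells in A375. MYB and TAL1, factors of blood progenitors and T leukemia, had 754 and 162 CPM in Jurkat against 4.51 and 0.403 CPM in A375. RUNX1, a factor of blood development, was detected in both lines and higher in Jurkat, with medians of 682 and 103 CPM (log2 ratio -2.05). MEF2C (19.6 CPM) and HHEX (18.8 CPM), both known from early blood cells, were higher in A375, with a count in 9 and 7 of 17 wells, and MEF2C had no count in Jurkat. RUNX3 did not separate the lines (25.9 and 40.9 CPM, log2 ratio -0.64), and 78.1% of the A375 counts of NFATC2 came from 1 well.

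Most measured melanocyte and melanoma genes were higher in A375, while several pigment genes were below the minimum level. Of 29 melanocyte and melanoma genes 17 were measured, 14 of them higher in A375 and none in Jurkat (median 4.50, or 6.57 with absent genes at their bound). SOX10, the neural crest factor, lay between 46 and 995 CPM in all 17 A375 wells, wells 8 and 11 included, with a median of 406, and was at 0 in every Jurkat well (at least 1850-fold higher in A375). NES, the intermediate filament nestin, ranged from 83.3 to 3830 CPM in A375 wells and was also at 0 in Jurkat. ERBB3, a neuregulin receptor of the melanocyte lineage, had a median of 599 CPM in A375, and 3 Jurkat wells held a count. Among genes of pigment cells, PMEL had 5.80 CPM and MLANA 1.53 CPM, each from 1 well, TYR had 0.483 CPM and TYRP1 no count. MITF, the main activator of pigment genes, had 15.3 CPM in A375 and 3.64 CPM in Jurkat (log2 ratio 1.81), with a count in 12 of 17 and 3 of 18 wells, and MC1R, the melanocortin receptor, had 14.6 and 3.94 CPM. Defining members S100B and MIA were scattered, with a count in 6 and 12 of 17 A375 wells and in no Jurkat well. PRAME, a tumour antigen, did not separate the lines (medians of 116 and 61.3 CPM, log2 ratio 0.15).

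The dedifferentiated melanoma genes leaned the same way: 15 of 18 were measured, 13 higher in A375 and 1 in Jurkat (median 4.84). All measured genes had shares of 15.8% and 9.53%. TNC, the matrix protein tenascin C, had a median of 842 CPM in A375 and no count in Jurkat. AXL, the receptor kinase that names this state, ranged up to 624 CPM in A375 wells with a median of 78.7, and had 1 count in Jurkat. THBS1 and FOSL1 varied strongly among A375 cells: 60.9% of the THBS1 counts came from 1 well, and FOSL1 ranged from 0 to 1050 CPM around a median of 83.6. NGFR and SOX9 did not reach 10 CPM. JUN ran the other way (10.5 CPM in A375 and 85.1 CPM in Jurkat), with 53.4% of its Jurkat counts in 1 well.

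Among genes whose wells did not overlap, all 17 A375 wells included, the largest differences joined lineage genes with matrix and cytoskeletal ones. Higher in A375 were WWTR1 (log2 ratio 10.43), LMNA (9.59), COL4A2 (9.44), LAMA5 (9.43), AHNAK (9.42), NES (9.19), SERPINE2 (8.97), SOX10 (8.72), APP (8.47) and HSPG2 (8.18). SERPINE2, a secreted protease inhibitor, ranged from 89.1 to 9820 CPM in A375 with a median of 3910, and reached 75.9 CPM at most in Jurkat. AHNAK, a giant scaffold protein, had a median of 1440 CPM in A375 and a count in 3 Jurkat wells, and its log2 ratio was 10.89 without Jurkat well 2. Higher in Jurkat were LCP1 (-10.81), ARHGDIB (-10.65), MYO7B (-10.13), DNTT (-8.85), ATP2A3 (-8.73), ZAP70 (-8.64), CD3E (-8.64), CORO1A (-8.54) and BCL11B (-8.50). ARHGDIB, a leukocyte inhibitor of small GTPases, lay between 1100 and 2470 CPM in Jurkat wells and had no count in A375. MYO7B, a myosin best known from intestinal microvilli, ranged from 77.8 to 4920 CPM in Jurkat wells and had 2 counts in A375. DNTT, the template-free polymerase of receptor rearrangement, lay between 8.79 and 1100 CPM in Jurkat with no count in A375.

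Cell surface adhesion was split between leukocyte and substrate-binding receptors. Of 25 integrin genes 16 were measured, 9 higher in A375 and 4 in Jurkat (median 2.88), against 15.8% and 9.53% of all measured genes. Jurkat held the leukocyte subunits: ITGAL and ITGB2, which form LFA-1, had medians of 122 and 118 CPM and no count in A375. ITGA4, a subunit for VCAM1 and fibronectin binding, ranged from 395 to 2960 CPM in Jurkat wells and from 0 to 212 CPM in A375 wells. ITGAE, which binds E-cadherin, was the fourth (30.1 against 5.14 CPM), with 54.2% of its Jurkat counts in 1 well. A375 held laminin and vitronectin receptor subunits. ITGA6 had a median of 627 CPM in A375, and 5 Jurkat wells held a count, up to 81.3 CPM. ITGB8 had a median of 280 CPM in A375 and a count in 1 Jurkat well, and ITGB5 (median 96.7 CPM) and ITGB4 (39.2 CPM) had none in Jurkat. ITGB1, the common beta subunit, was shared, with 509 CPM in A375 and 226 CPM in Jurkat (log2 ratio 1.17). Without wells 8 and 11, the wells of ITGA6, ITGB5 and ITGB8 did not overlap with Jurkat.

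Other adhesion receptors divided likewise, with 30 of 35 autosomal genes measured, 17 higher in A375 and 8 in Jurkat (median 2.52). The shares of all measured genes were again 15.8% and 9.53%. CD44, the hyaluronan receptor, lay between 340 and 1420 CPM in 15 A375 wells and had no count in Jurkat (at least 3850-fold). CDH13 (median 306 CPM in A375), a cadherin anchored by a lipid, and NRP2 (221 CPM), a semaphorin coreceptor, were also absent from Jurkat. CD9, a tetraspanin, had 112 CPM in A375 and none in Jurkat, while CD53, a leukocyte tetraspanin, had 58.3 CPM in Jurkat and none in A375. SELPLG, the ligand of P-selectin, ranged from 0 to 317 CPM in Jurkat wells and had no count in A375. SPN, the sialophorin CD43, lay between 106 and 580 CPM in Jurkat and reached 29.7 CPM in A375. CD58, the ligand of CD2, was higher in A375 (65.1 against 5.16 CPM), and CD2 itself was found in Jurkat alone (126 CPM against 0).

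Extracellular matrix had the highest median ratio of the 23 lists compared. Of 43 matrix genes 32 were measured, 29 higher in A375 and none in Jurkat, with a median of 6.91 (7.60 with absent genes at their bound). In 19 the wells did not overlap once wells 8 and 11 were left out. The shares over all measured genes were 15.8% higher in A375 and 1.81% without overlap in that direction. The summed level of the list lay between 7690 and 25500 CPM in A375 wells and between 11.7 and 780 CPM in Jurkat wells. TNC, described above, had the highest ratio (log2 ratio 10), followed by LAMC1 (9.97), COL4A2 (9.44) and LAMA5 (9.43). The laminin chains LAMC1 (median 868 CPM in A375 wells), LAMB1 (1710) and LAMA5 (675) were present, LAMB1 with 88 counts in 3 Jurkat wells and the others with none. The collagen IV chains COL4A1 and COL4A2 had medians of 269 and 519 CPM in A375 and no count in Jurkat. NID1, which links laminin and collagen IV, had 308 CPM in A375 and 5 counts in Jurkat, and the proteoglycan gene HSPG2 had 289 CPM and none. Members below the minimum level included FN1, fibronectin (5.88 CPM in A375), and COL1A1, a fibrillar collagen chain (2 counts in A375 and 9.02 CPM in Jurkat). The 3 measured genes between the lines were TIMP2, a protease inhibitor (79 and 82.1 CPM in A375 and Jurkat), P4HA1, a collagen prolyl hydroxylase (56.8 and 117 CPM), and PLOD1, a lysyl hydroxylase (105 and 29.8 CPM).

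Focal adhesion and actin genes held members higher in A375 beside many found in both lines. Of 46 genes 41 were measured, 16 higher in A375, 2 in Jurkat and 23 between (median 0.99), against 15.8% and 9.53% of all measured genes higher in A375 and Jurkat. VCL, the adhesion plaque protein vinculin, had a median of 217 CPM in A375 wells and 0 in Jurkat wells, where 6 held a count. CAVIN1, a coat protein of caveolae, was found in all 17 A375 wells (67.6 to 348 CPM) and reached 3.30 CPM in Jurkat. CALD1, caldesmon, had a median of 174 CPM in A375 and a count in 1 Jurkat well. FERMT3, the kindlin of blood cells, was higher in Jurkat (128 against 1.69 CPM), as was PDLIM1 (127 against 24.6 CPM). Actins, talin and nonmuscle myosin showed no such difference: the log2 ratios of ACTB, ACTG1, TLN1 and MYH9 were -0.94, -1.01, -0.36 and -1.06.

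At the nuclear lamina the lines were almost exclusive for lamin A. LMNA, which encodes lamins A and C, ranged from 244 to 1580 CPM in A375 wells, wells 8 and 11 included, with a median of 701, and rounded to 0 counts over the Jurkat wells (at least 3380-fold). LMNB1, a B-type lamin, was present in both lines, at a median of 595 CPM in Jurkat wells and 88.3 CPM in A375 wells. Of the 16 intermediate filament and lamina genes, all measured, 7 were higher in A375, 2 in Jurkat and 7 between (median 0.61). The shares over all measured genes were 15.8% and 9.53%. KRT18, a simple epithelial keratin, had a median of 226 CPM in A375 and no count in Jurkat, while VIM, vimentin, was common to both (medians 1200 and 550 CPM, log2 ratio 0.93). SYNE2, a nuclear envelope spectrin protein, was higher in Jurkat (590 against 73 CPM).

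Genes of proximal T cell receptor signalling were higher in Jurkat or lay between the lines. Of 33 genes 31 were measured, 21 higher in Jurkat, 10 between and none higher in A375 (median -4.10). LCK, the kinase that phosphorylates the CD3 chains, lay between 25.7 and 603 CPM in Jurkat wells and had 1 count in A375. LAT, the membrane adaptor downstream of ZAP70, had 64.6 CPM in Jurkat and 2 counts in A375. VAV1, an exchange factor, and GRAP2, an adaptor that binds LCP2, had medians of 192 and 121 CPM in Jurkat wells, with counts in 2 and 1 A375 wells. Among the 10 genes between the lines were FYN, a kinase related to LCK (58.2 CPM in A375 and 163 CPM in Jurkat), and CBL, a ubiquitin ligase (129 and 179 CPM). MALT1 and NCK1 were the highest in A375 relative to Jurkat (log2 ratios 0.37 and 0.22).

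ERK output and feedback genes were mostly higher in A375. Of 25 genes 24 were measured, 22 higher in A375 and none in Jurkat (median 5.99, or 6.72 with absent genes at their bound). The feedback phosphatases DUSP4 and DUSP6 had medians of 413 and 182 CPM in A375 wells and no count in Jurkat. PHLDA1 and CCND1, cyclin D1, had medians of 640 and 506 CPM in A375, also with no count in Jurkat. SPRY4, an inhibitor of receptor signalling, ranged up to 1890 CPM in A375, and 2 Jurkat wells held a count. The ETS factors ETV4 and ETV5 had 151 and 155 CPM in A375, against 1 and 13 counts in Jurkat. The members with the lowest ratios included feedback inhibitors too: SPRED2 had 88 CPM in A375 and 48.5 CPM in Jurkat (log2 ratio 0.85), and SPRY1 had 28.3 and 4.47 CPM (2.42). The immediate early gene EGR1 had 395 and 54.9 CPM (2.83), and FOS had 97.3 and 8.72 CPM (3.34). MYC ran the other way without reaching 4-fold (41.1 and 80.4 CPM, log2 ratio -0.95), with a count in 7 of 17 A375 wells and 14 of 18 Jurkat wells.

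The YAP and TEAD list likewise held more genes higher in A375. Of 19 genes 17 were measured, 12 higher in A375 and none in Jurkat (median 4.60). The coactivators were nearly exclusive: WWTR1, known as TAZ, lay between 239 and 3570 CPM in A375 wells with no count in Jurkat, and YAP1 had a median of 132 CPM in A375 and 1 count in Jurkat. Among the DNA-binding partners, TEAD1 had a median of 111 CPM in A375 wells and 0 in Jurkat wells. CRIM1, a transmembrane protein among the targets, had a median of 148 CPM in A375 and a count in 1 Jurkat well. The upstream inhibitors were shared, with log2 ratios of -0.87 for NF2, 0.53 for LATS1 and 0.52 for LATS2.

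Among receptor tyrosine kinases, 20 of 31 were measured, 12 higher in A375 and 1 in Jurkat (median 3.37). Of all measured genes, 15.8% were higher in A375 and 9.53% in Jurkat. DDR2, a collagen receptor, had a median of 993 CPM in A375 wells, MET, the HGF receptor, one of 187 CPM and EPHA2, an ephrin receptor, one of 104 CPM, all with no count in Jurkat. EGFR had 27.6 CPM in A375 and none in Jurkat. FLT1, a VEGF receptor, was higher in Jurkat (53.8 against 5.72 CPM). The insulin receptor gene INSR was equal (73.4 and 77 CPM), and KIT, a receptor of melanocytes, did not reach 10 CPM.

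Cytokine receptors, the Notch pathway and the PI3K axis held genes higher in each line, with medians near 0. The counts stand beside 15.8% of all measured genes higher in A375 and 9.53% higher in Jurkat. For cytokine and chemokine receptors, 24 of 35 autosomal genes were measured, 7 higher in A375 and 5 in Jurkat (median -0.17). CXCR4, the receptor for CXCL12, lay between 11.7 and 610 CPM in Jurkat wells and had no count in A375, while OSMR, the oncostatin M receptor, had a median of 102 CPM in A375 and no count in Jurkat. LIFR, which pairs with the same coreceptor, had 44 CPM in A375. The Notch list had 19 of 27 measured, 6 higher in A375 and 4 in Jurkat (median 0.12). JAG1, a ligand, had 96.1 CPM in A375 against 4.09 CPM in Jurkat, and the coactivators MAML2 and MAML3 had 63.3 and 49.8 CPM in A375 against none and 3 counts. MFNG, which modifies Notch receptors, and HES4, a target, were higher in Jurkat (44.4 and 41.7 CPM, with 4 and 6 counts in A375). NOTCH1 stayed just below the minimum, at 9.16 CPM in Jurkat from 3 wells and no count in A375. Of 24 PI3K genes measured among 25, 3 were higher in A375, 4 in Jurkat and 17 lay between (median -0.43). INPP4B, a lipid phosphatase, had a median of 212 CPM in A375 and no count in Jurkat. The leukocyte subunits PIK3CG and PIK3R5 were higher in Jurkat (42.5 and 24.9 CPM, against 1 count and none). INPP5D, a phosphatase of blood cells, had 35.7 CPM in Jurkat and 1.53 CPM in A375.

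**Figure D3:**
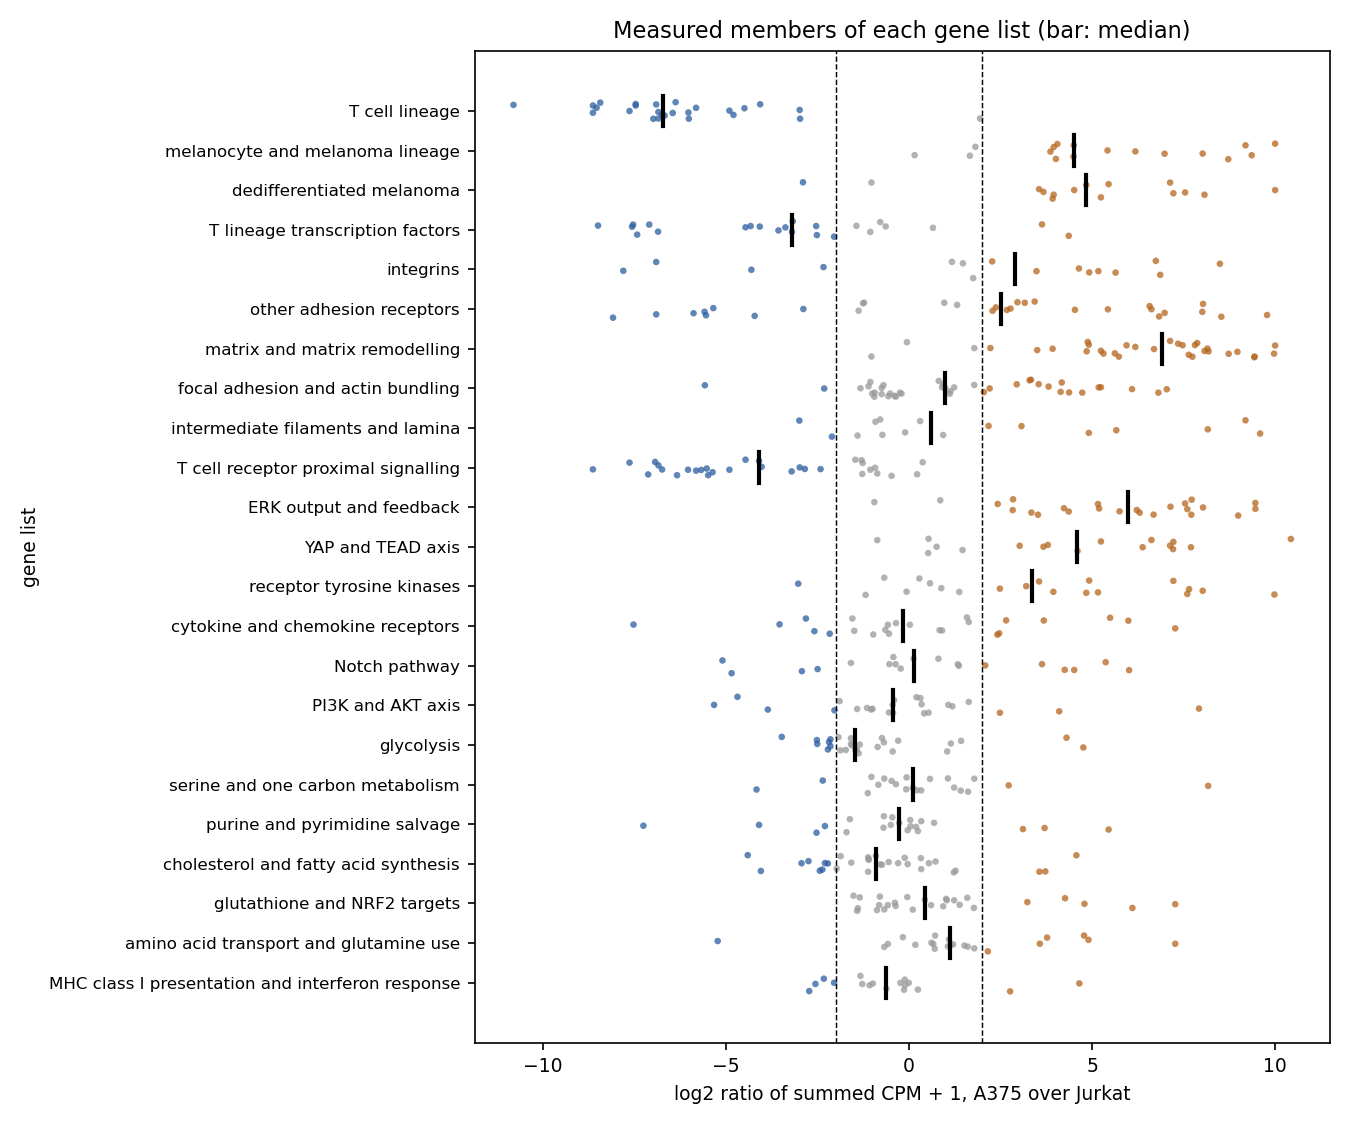
Log2 ratio of A375 over Jurkat for the measured members of 23 gene lists (points), with the median of each list as a bar and dashed lines at a 4-fold difference. The T cell lists lie to the left (medians -6.72, -4.10 and -3.20), and matrix, ERK and melanoma lists to the right (6.91, 5.99 and 4.84), and most metabolic lists straddle 0.

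Many cytoskeletal and signalling proteins exist as a leukocyte form and a more general relative, and 24 pairs of related genes were compared per length, as the log2 ratio of TPM + 1 of the first gene, mostly the leukocyte form, over the other in the same well. The first gene was the higher in the median Jurkat well and the lower in the median A375 well in 14 pairs, lower in both lines in 5, higher in both in 1, and the A375 median was 0 in 3. The remaining pair, LDHB and LDHA, ran the other way, with medians of 1.42 in A375 wells and -0.05 in Jurkat wells. For 6 pairs no A375 well overlapped a Jurkat well, and for 9 without wells 8 and 11. Among the first, ARHGDIB and ARHGDIA had a median ratio of 3.70 in Jurkat wells and -6.93 in A375 wells. HCLS1 and CTTN, the cortactins, had 4.88 and -7.61, and EVL and ENAH, which act on growing actin filaments, had 3.80 and -6.26. MYO1G and MYO1C, membrane-linked myosins, had 5.04 and -5.17, and LMNB1 and LMNA had 8.17 and -3.17. ZAP70 and SYK had 3.40 in Jurkat wells and 0 in A375 wells, where SYK was itself nearly absent (median 0 TPM), so that this was not a switch from 1 form to the other.

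The first gene of the pair was at least 4-fold higher in Jurkat in 21 of 24 pairs. The other was at least 4-fold higher in A375 in 6, all of them pairs in which both held. Over all measured genes, 9.53% were at least 4-fold higher in Jurkat and 15.8% in A375. Since the first genes were mostly chosen as leukocyte forms, the 21 pairs follow largely from that choice. The other gene was itself 4-fold higher in Jurkat in 4 pairs, SYK (log2 ratio -7.05), ELMO2 (-2.47), LDHA (-2.22) and BIN1 (-2.05). LMNB1 and LDHB are placed first in their pairs but are widely expressed genes and no leukocyte forms. RAC1 had a median of 135 TPM in A375 and 55.4 TPM in Jurkat, and RAC2 0 and 79.3 TPM, and reads of these similar genes may be shared out by the quantification. ARHGDIA (121 and 96.7 TPM), CORO1C (48.5 and 47.5), GRB2 (59.7 and 62.1) and PTPN11 (60.9 and 62) had similar medians in A375 and Jurkat. The 6 pairs in which both held were HCLS1 for CTTN (195 TPM of CTTN in the median A375 well and 0 in Jurkat), EVL for ENAH (140 and 2.93 TPM of ENAH), MYO1G for MYO1C (35.7 and 0 TPM of MYO1C), DOCK2 for DOCK1 (14.7 and 0 TPM of DOCK1), INPP5D for INPPL1 (39.7 and 0 TPM of INPPL1) and LMNB1 against LMNA (346 and 0 TPM of LMNA). Pairs that did not separate the lines included ELMO1 and ELMO2, with medians of 2.99 in A375 wells and 2.90 in Jurkat wells, PIK3CD and PIK3CA (-2.51 and -2.65), and PRKCQ and PRKCA (-3.22 and -3.43).

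**Figure D4:**
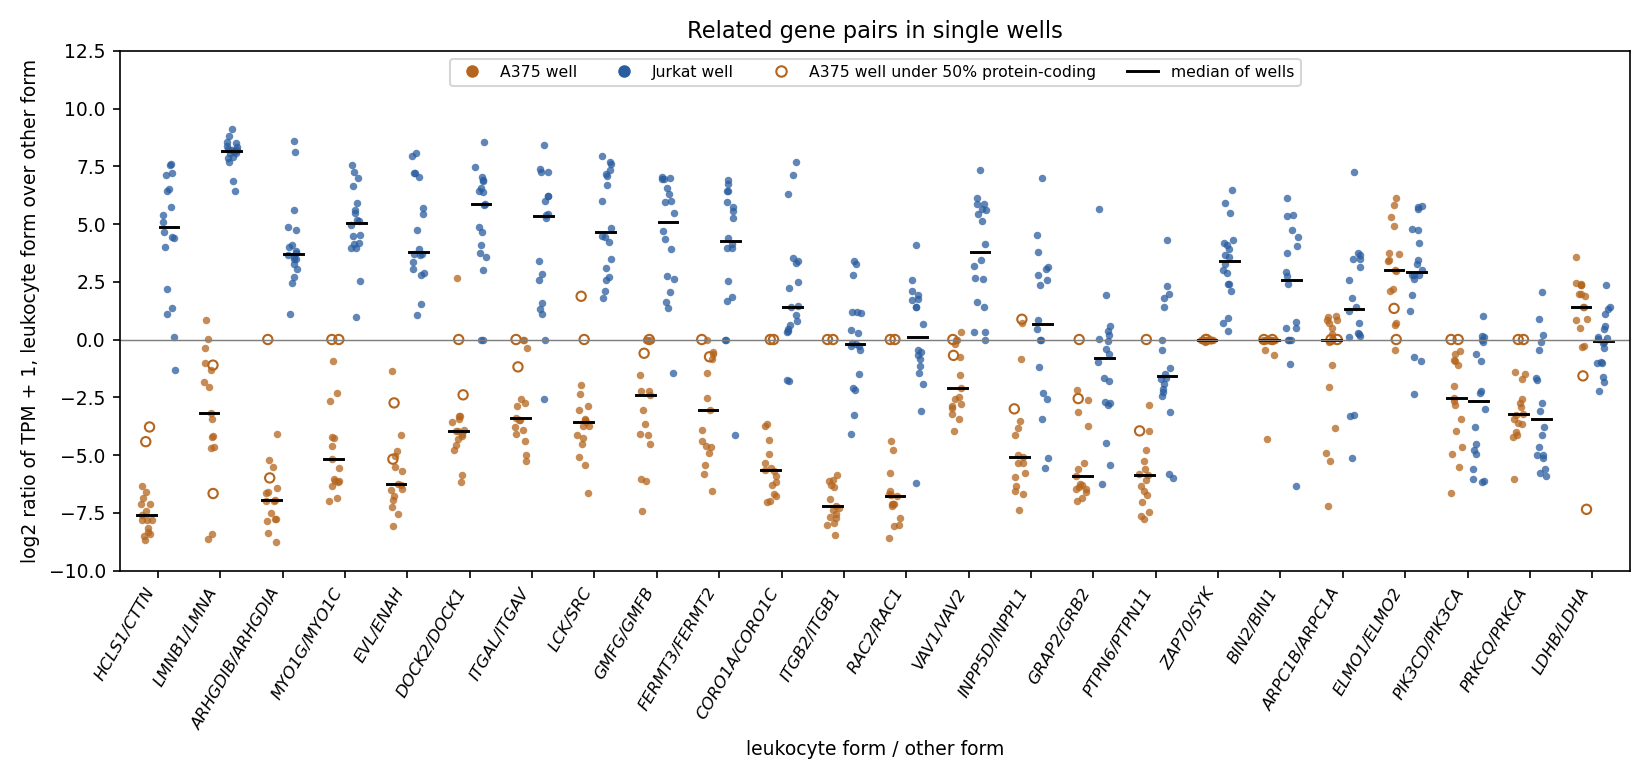
Log2 ratio of TPM + 1 of the first gene of a pair over its relative in each A375 (orange) and Jurkat (blue) well for 24 pairs, ordered by the difference of the medians (bars). Open circles are A375 wells 8 and 11. In the pairs at the left the medians lie below 0 in A375 and above 0 in Jurkat, though single wells of some pairs cross 0. Pairs at the right, such as ELMO1/ELMO2 (2.99 and 2.90), do not part the lines.

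Glycolysis genes were lower in A375 by their median and their summed level. Of 30 genes 27 were measured, 7 higher in Jurkat, 2 in A375 and 18 between, with a median of -1.47. These counts stand beside 9.53% and 15.8% of all measured genes higher in Jurkat and A375. The summed level of the list was 9660 to 32500 CPM in Jurkat wells and 2020 to 7990 CPM in A375 wells, with no overlap. GAPDH lay between 2950 and 8720 CPM in Jurkat wells and between 205 and 3540 CPM in A375 wells (log2 ratio -1.47). ENO1, enolase, had medians of 2680 and 875 CPM in Jurkat and A375, and PKM, pyruvate kinase, 1910 and 697 CPM. LDHA, which makes lactate, reached 4-fold, with 1250 CPM in Jurkat (349 to 2990) and 268 CPM in A375 (68.4 to 1960, the highest being 1 of the wells set apart). PGAM1, phosphoglycerate mutase, ranged from 323 to 1230 CPM in Jurkat and from 0 to 255 CPM in A375, without overlap. ALDOC and ENO2, isoforms known from brain, were also higher in Jurkat (91.6 against 7.33 CPM and 187 against 31.8 CPM). PFKM, the muscle phosphofructokinase, and PDK4, which restrains pyruvate oxidation, were the members higher in A375 (95.7 against 3.90 CPM, and 26.1 CPM against none).

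Of 24 serine and one carbon genes 21 were measured, 2 higher in each line and 17 between (median 0.10), shares no higher than those over all measured genes. ALDH1L2, the mitochondrial formyltetrahydrofolate dehydrogenase, lay between 162 and 593 CPM in 15 A375 wells, and had 0.228 CPM in Jurkat from 2 wells. PSAT1, of serine synthesis, was higher in A375 (314 against 46.9 CPM), and PHGDH and MTHFD2 were 2.35 and 3.06 times higher. TYMS, which makes thymidylate, was higher in Jurkat, with 96.3 to 2140 CPM against 0 to 320 CPM in A375.

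In purine and pyrimidine salvage, 21 of 24 genes were measured, 3 higher in A375 and 4 in Jurkat (median -0.27), against 15.8% and 9.53% of all measured genes. ADA, adenosine deaminase, whose loss is toxic to lymphocytes, had 422 to 1420 CPM in Jurkat wells and 0 to 20.2 CPM in A375 wells, without overlap. NT5E, the ectoenzyme CD73 that makes adenosine, was its converse, with a median of 217 CPM in A375 and a count in 2 Jurkat wells. DCK, which phosphorylates deoxycytidine, was higher in Jurkat (217 against 11.8 CPM), and SAMHD1, which breaks down deoxynucleotides, was higher in A375 (54.3 against 5.38 CPM).

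Cholesterol and fatty acid synthesis had all 31 autosomal genes measured, 8 higher in Jurkat, 3 in A375 and 20 between (median -0.91). Among all measured genes 9.53% were higher in Jurkat and 15.8% in A375. The sterol genes HMGCS1, SQLE and ACAT2 were higher in Jurkat (346, 184 and 243 CPM, against 44.2, 33.3 and 10.5 CPM), as was FADS2, a desaturase (354 against 20.5 CPM). Single Jurkat wells differed widely, HMGCS1 from 20.4 to 2270 CPM and INSIG1 from 125 to 2420 CPM. CYP51A1, a sterol demethylase, ran the other way, with 138 CPM in A375 and 4.85 CPM in Jurkat from 1 well (log2 ratio 4.57, or 7.12 without Jurkat well 12).

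Glutathione and NRF2 target genes were mostly between the lines (22 of 27 measured, of 31), with 5 higher in A375 and none in Jurkat (median 0.43). Over all measured genes the shares higher in A375 and Jurkat were 15.8% and 9.53%. SLC7A11, the cystine transporter, lay between 152 and 855 CPM in 15 A375 wells and had 1.97 CPM in Jurkat from 3 wells. NQO1, a quinone reductase, had a median of 289 CPM in A375, and ME1, malic enzyme, had 67.6 CPM in A375 and no count in Jurkat. PRDX1 and SOD1, antioxidant enzymes, were lower in A375 without reaching 4-fold (log2 ratios -1.52 and -1.42). Of 22 measured amino acid genes among 23 autosomal, 6 were higher in A375 and 1 in Jurkat (median 1.11). ASNS, asparagine synthetase, had a median of 412 CPM in A375 and 12.8 CPM in Jurkat from 6 wells. GLUL, which makes glutamine, was the exception, with 170 to 1760 CPM in Jurkat wells and 0 to 38.9 CPM in A375 wells.

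**Figure D5:**
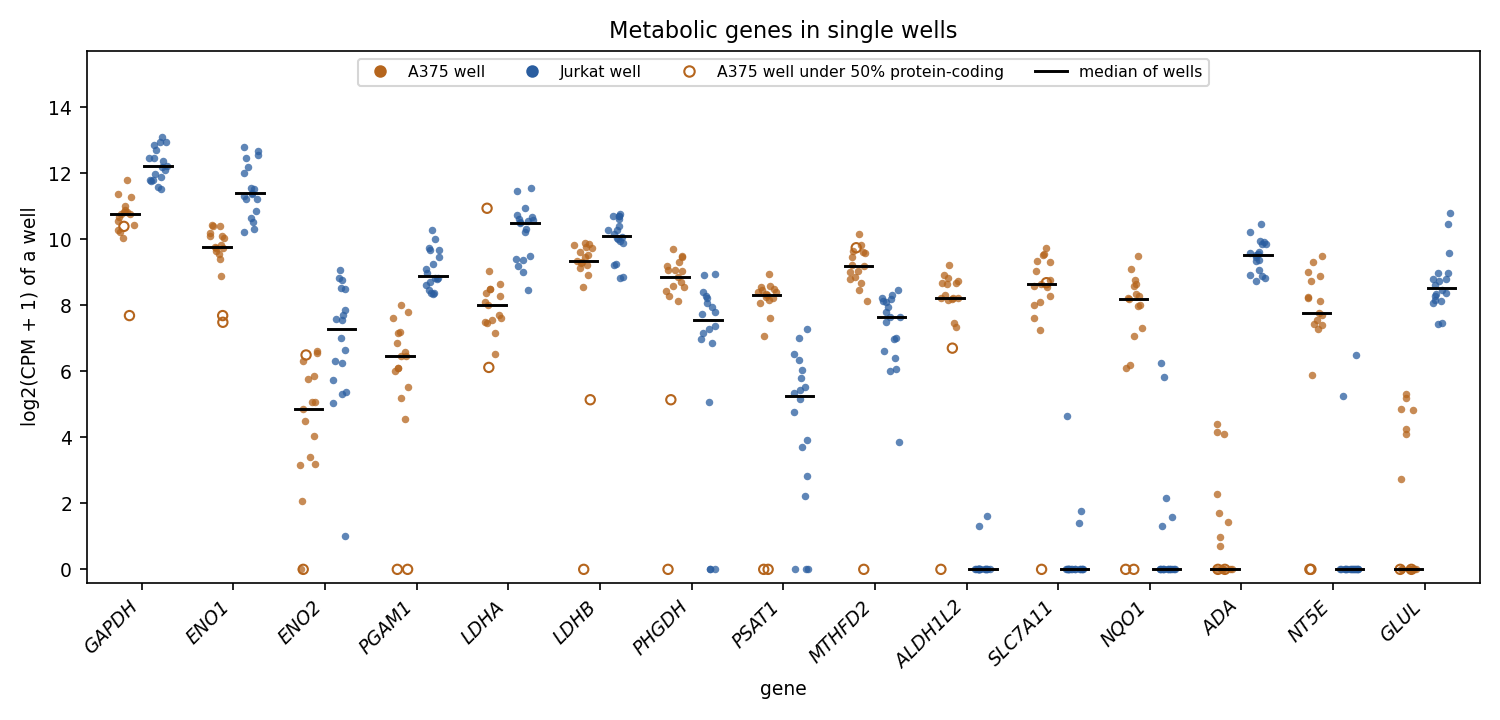
Level of 15 metabolic genes in each well, as log2(CPM + 1), for A375 (orange) and Jurkat (blue), with medians as bars and A375 wells 8 and 11 as open circles. ADA and GLUL stand high in all Jurkat wells (lowest 422 and 170 CPM), and ALDH1L2 and SLC7A11 do so in the 15 A375 wells (lowest 162 and 152 CPM), while GAPDH and LDHB are present in both lines.

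Of 23 genes of MHC class I presentation and the interferon response 17 were measured, 2 higher in A375, 4 in Jurkat and 11 between (median -0.62). The shares over all measured genes were 15.8% higher in A375 and 9.53% higher in Jurkat. B2M, the common light chain, had 215 and 233 CPM in A375 and Jurkat. IRF1, an interferon-induced factor, and the immunoproteasome subunit PSMB8 were higher in Jurkat (151 against 21.9 CPM and 143 against 27.7 CPM), and IFITM3, a membrane restriction factor, was higher in A375 (37.5 against 0.531 CPM).

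Markers of other cell types were mostly below the minimum level, with exceptions in both lines. Of 10 B cell markers 3 were measured: CD22 (10.7 CPM in A375 and 1.11 CPM in Jurkat), EBF1 (3.3 and 10.2 CPM) and BLK (0 and 13.1 CPM). The summed level of the list was 0 to 78.5 CPM in A375 wells and 0 to 142 CPM in Jurkat wells, MS4A1 being at 0 in both. Of 10 myeloid markers only AIF1 was measured, higher in Jurkat (79.4 against 1.21 CPM), and CD14 and MPO had no count. None of 9 erythroid markers was measured, though HBA1 and HBB had 8.81 and 5.84 CPM in Jurkat, each from 2 wells. Of 10 keratinocyte and epithelial markers 3 were measured, and KRT5 was at 0. DSP, desmoplakin, had 109 CPM in A375 and 0 in Jurkat, and KRT10, a keratin, 41.6 and 8.04 CPM. KRT1, another keratin, ran the other way (0 in A375 and 10.1 CPM in Jurkat). The summed level of this list reached 339 CPM in A375 wells and 131 CPM in Jurkat wells, and that of the erythroid list reached 205 and 474 CPM. Without A375 wells 8 and 11 the erythroid list reached 46.9 CPM at most in A375.

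The same lines were also prepared with the SMART-Seq Stranded Kit (#634444), in 16 A375 and 18 Jurkat wells with at least 200000 counts. The differences between lines were largely shared. Of the 1700 genes higher in A375, 1201 were so with the other kit too, 70.6% of these and 76.8% of the 1563 genes there, and of the 1025 higher in Jurkat, 640 were, 62.4% and 73.9% of the 866 there. Of all 2725 genes, 75 had the opposite sign with the other kit and 0 were 4-fold in the opposite direction. The log2 ratios of the 4 marker genes were -10.29 for LCP1, -7.74 for ZAP70, 9.23 for CSPG4 and 9.91 for S100A6 there. Some list medians near 0 had the opposite sign with the other kit. Cytokine and chemokine receptors had 0.56 (-0.17 above), the PI3K axis 0.21 (-0.43), and glutathione and NRF2 targets -0.2 (0.43). Line and sort buffer went together with that kit too.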

How the data were processed

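Single A375 and Jurkat cells were sorted into wells, and total RNA was sequenced in paired ends. The authors trimmed reads with cutadapt, quantified Ensembl 91 transcripts and ERCC sequences with Kallisto 0.43.1 in stranded mode, and deposited estimated counts, not normalized, and TPM values for each well. Here 195850 of 200206 Ensembl transcripts were matched by identifier, without version, to GENCODE v44 genes and summed. No mitochondrial gene was among the targets. Wells with fewer than 200000 estimated counts (4 A375 wells) were left out, and groups came from the labelled cell line and kit. Counts on protein-coding, T cell receptor and immunoglobulin genes were summed over wells and expressed as CPM. Autosomal genes at 10 CPM in either line were compared after adding 1 CPM, and pairs of genes as TPM after adding 1 TPM. Poisson intervals at 95% and the floor of 3 counts cover counting error only, since PCR reads are not independent molecules. Sums that rounded to 0 counts were treated as 0. The gene lists, pairs and markers were chosen with earlier results of these data known. Genes named were the 4 markers, up to 4 highest and 4 lowest of each list, the 10 largest non-overlapping genes in each direction and the pair genes. Overlap for these 10 genes was judged with all 17 A375 wells. Other list members are named for their role, after their values were seen. Doublets were not called. Alternative scalings, minimums and wells were tried with edgeR 4.0.16 (TMM factors) and DESeq2 1.42.0 (size factors) in R 4.3.3. The counting of 4-fold genes was tested on simulated data. Promoter windows of 8813 measured genes came from RefSeq. Tables were made with pandas 2.3.3, numpy 2.4.6 and scipy 1.17.1 (Python 3.11.15), and figures with matplotlib 3.10.9. A few genes that the rule names are not reported here.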

Additional observations from a re-analysis of the deposited data

How the results depend on the processing

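Cell line and sort buffer go together, each line is 1 sample, and library pools are not named in the labels, so no alternative separates these. The 4-fold counts (1700 higher in A375 and 1025 in Jurkat) stayed within 1.5 times in all alternatives except 2 for A375, 998 with the mean of TPM over wells and 2570 with the median of CPM over wells. Each scaling (TMM, DESeq2 size factors, all estimated counts) gave a median log2 ratio of 0.01 in place of 0.07. The number of genes whose wells did not overlap rested on the wells kept. For genes higher in A375 (30) it was 17 on the scale of all counts, 16 with TPM, 0 with all wells of the kit, 195 with at least 50% protein-coding counts, 239 with kit 634444 and 166 after thinning to 200000 protein-coding counts. Leaving out 1 well or 1 block of 8 index numbers at a time gave 30 to 245 for A375 (81 without A375 well 8 and 53 without A375 well 11) and 47 to 74 for Jurkat, and kit 634444 gave 111 for Jurkat. These counts need single wells and have no value under TMM, DESeq2 or pooled alternatives. The minimum level was applied anew to the levels of each alternative, so a list median there can rest on other members than the main one. With the median over wells, list medians were 7.24 for melanocyte and melanoma lineage genes, 5.80 for integrins, 4.49 for other adhesion receptors, -5.14 for T cell receptor signalling, 6.11 for receptor tyrosine kinases, 1.93 for cytokine receptors and 2.40 for the Notch pathway. A pseudocount of 0.1 CPM gave -9.51 for T lineage, 7.76 for melanoma lineage and -5.21 for T cell receptor signalling. TPM gave -5.72 and kit 634444 gave -6.29 for T lineage, and the kit gave -5.09 for T cell receptor signalling. With no minimum level, receptor tyrosine kinases had a median of 1.25. The difference of ELMO1/ELMO2 between the lines was 2.41 with kit 634444. DLL3, a Notch ligand, had a log2 ratio of -2.50 that became 0.96 without the Jurkat index block 49 to 56, the highest of -3.16 to 0.96 over the wells and blocks left out. Without 1 Jurkat block, MITF had 4.03, NQO1 7.86 and SERPINE2 11.26 (1.81, 4.79 and 8.97 with all wells). The cause of these changes was not tested beyond the wells named. No paired analysis was possible because no test was made and replicate numbers only name wells.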
